A study of Bos taurus with 15 samples.

Results

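Oxidative phosphorylation subunit genes were followed in bovine blastocysts cultured with or without extracellular vesicles of the oviduct (oEVs). A gene was a member when its bovine symbol begins with NDUFA, NDUFB, NDUFC, NDUFS or NDUFV without being an NDUFAF assembly factor, is SDHA, SDHB, SDHC or SDHD, begins with UQCR, is CYC1, begins with COX4 to COX8, or begins with ATP5. This gave 82 of the 10832 genes in the filtered count table, with 37 in complex I, 4 in complex II, 9 in complex III, 14 in complex IV (NDUFA4 included) and 18 in complex V, the ATP synthase. The table held none of the 13 subunit genes of the mitochondrial genome, which were not analysed here. In vitro produced embryos were cultured to day 7, per the labels, without oEVs (Co), with fresh oEVs (FeEV) or with oEVs that had been frozen (FoEV). The oEVs came from oviductal fluid of postovulatory cows, and fresh and frozen oEVs were portions of the same collections. Each library was made from 1 ng total RNA of 1 pool of 8 to 14 embryos, with 5 libraries per treatment chosen for RNA quality and concentration from 21 pools. No source ties the pools of a treatment to separate cultures or to animals, so p-values measure only the spread between these pools, which may in part be technical.

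Oxidative phosphorylation is carried out in the inner mitochondrial membrane. Complexes I and II take electrons from NADH and succinate and pass them to ubiquinone, complex III passes them to cytochrome c, and complex IV passes them to oxygen. Complexes I, III and IV pump protons, and the ATP synthase uses the returning protons to make ATP. Pyruvate oxidation and oxygen uptake increase as the mammalian embryo compacts and forms a blastocoel, when the sodium pump of the trophectoderm draws on ATP.

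Library totals were 2571558 to 2977004 counts in Co, 2136713 to 3808602 in FeEV and 3392613 to 4058887 in FoEV, so every FoEV library was deeper than every Co library. With counts thinned to the smallest library, the main description below was close to that at full depth (17 members at an unadjusted p under 0.05 in FoEV vs Co against 18, and a median log2 fold change of 0.18 in both). The values given per library are counts per 1000000 counts of the TMM-scaled library size (CPM). CPM is not corrected for transcript length, so it is compared here between libraries for a gene and not between genes. The members together took 0.616 to 0.807% of the counts in Co libraries, 0.676 to 0.763% in FeEV and 0.644 to 0.864% in FoEV, and these ranges overlapped.

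The isoforms detected were mostly those known from many tissues. The rule matched 89 symbols in the unfiltered table, and the 7 outside the filtered table included the isoforms known from muscle or hypoxia. In all 15 libraries COX4I2, the isoform known from lung, and COX8B, a muscle isoform, had 0 counts. COX6A2 and COX7A1, also muscle isoforms, had 1 and 7 counts over all libraries, and NDUFA4L2, a paralog of NDUFA4 known from hypoxic cells, had 9. COX6B2, known from testis, had 175 counts in all, and COX7ALP1, a pseudogene of the COX7A family, had 149. Within the filtered table, 80 members had at least 10 CPM in every library. The exceptions were COX7B2 at 3.005 to 10.9 CPM and COX8C at 4.01 to 10.4 CPM, which are both known from testis. Members with processed pseudogenes, such as UQCRB, ATP5PB and COX7A2, are uncertain to the extent that counting split reads between copies.

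In FoEV vs Co, most subunit genes were slightly higher with frozen oEVs, and none passed the test across all genes. Of the 82 members, 76 had a log2 fold change above 0 and 6 below it, against 52.3% of all 10832 genes above 0. The median log2 fold change of the members was 0.18, against 0.01 over all genes, and 73.9% of all genes lay below the members' median. By the edgeR quasi-likelihood test, 18 members had an unadjusted p under 0.05, all higher in FoEV. That is 21.95% of the members, while 15.1% of all genes had such a p, with 8.18% of all genes higher and 6.88% lower in FoEV. With Benjamini-Hochberg adjustment 0 members passed 0.05, as did 0.00923% of all genes, and the smallest adjusted p of a member was 0.0948 for NDUFA7. The likelihood ratio test of edgeR with robust dispersions, the kind of test the study describes, gave 7 members at an adjusted p under 0.05. It gave 311 of all 10832 genes at that threshold. DESeq2 gave 2 of the 82 members and 144 of all genes. Among genes upregulated with frozen oEVs, the study lists NDUFA7, NDUFA13, NDUFB7, NDUFB11 and ATP5MC1 under oxidative phosphorylation. ATP5MJ and NDUFS7, also among the 7, are not under that term. In pooled embryos, fewer cells of a type and less RNA per cell cannot be told apart.

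Single libraries moved these counts. Without FoEV replicate 3, 10 members had an unadjusted p under 0.05 and the median was 0.10. Without FoEV replicate 2, 35 members had such a p, the median was 0.23, and NDUFA7 and NDUFA13 passed the adjusted threshold. Of all genes, 58 passed it in that fit and 14 without FoEV replicate 3, against 1 with all libraries. The share of all genes at an unadjusted p is not given, here or below, for fits with a library left out or another setting. Member counts at such a p in those fits therefore have no background beside them. The medians of the complexes moved as well. Without FoEV replicate 3 they were 0.06 in complex II, 0.09 in complex III and 0.02 in complex V. Complex III was at 0.08 without Co replicate 3, 0.23 without Co replicate 1 and 0.24 without FoEV replicate 2, and complex V was at 0.17 without Co replicate 5.

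**Figure D1:**
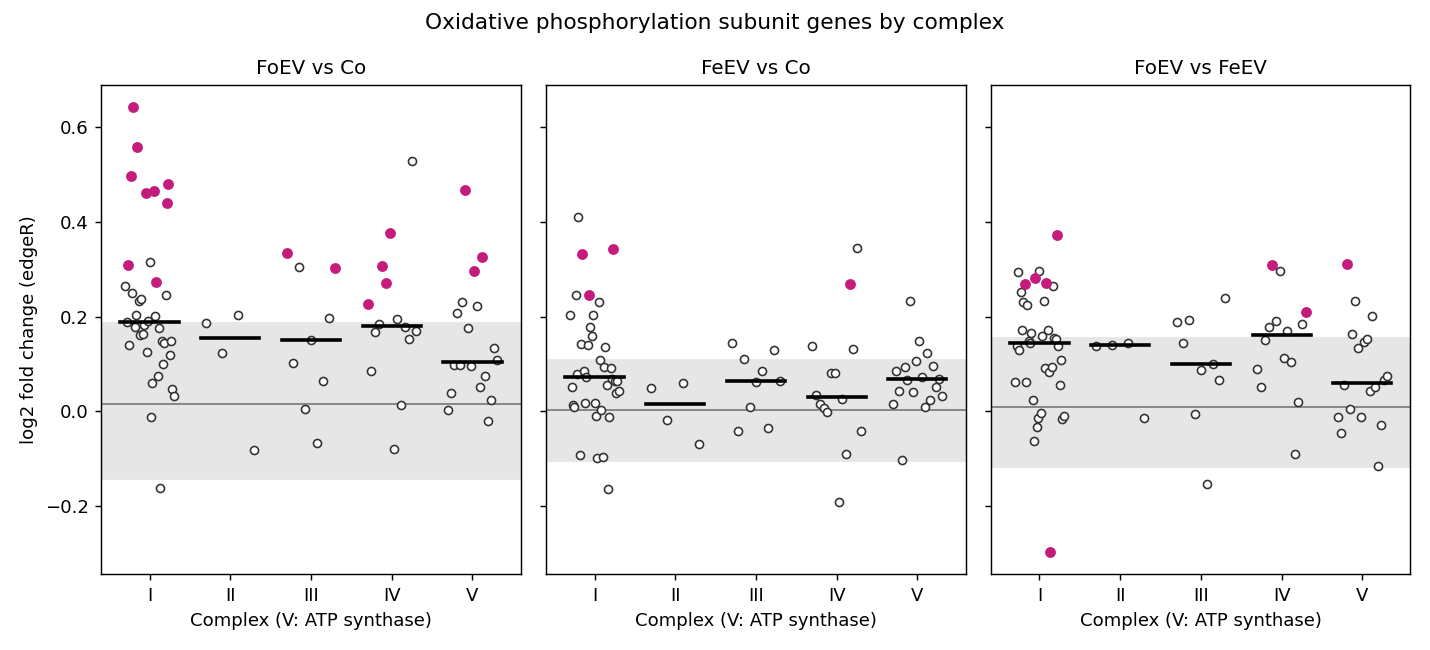
Log2 fold change of each of the 82 subunit genes (points) by complex, in FoEV vs Co, FeEV vs Co and FoEV vs FeEV. Filled points have an unadjusted p under 0.05, thick bars are medians over the genes of a complex, the grey line is the median of all 10832 genes, and the grey band spans their quartiles. In FoEV vs Co the medians were 0.19, 0.15, 0.15, 0.18 and 0.10 for complexes I to V, all above the median of all genes.

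Complex I, the NADH dehydrogenase and the largest complex by its number of members, was higher in FoEV in 35 of 37 genes, at a median log2 fold change of 0.19, and 9 genes had an unadjusted p under 0.05. Its 7 core genes, which include the carriers of the flavin and the iron-sulfur clusters, had a median of 0.12, and the other 30 genes had a median of 0.20. All 13 accessory genes of the A series were higher, as were 10 of the 11 of the B series, where NDUFB5 was at -0.01.

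NDUFA7 (gene ID 338063), an accessory subunit of the matrix arm, had 27.7, 33.4, 23.5, 24.5 and 33.6 CPM in Co, 31.6, 37.9, 33.8, 33.2 and 42.7 in FeEV, and 39.6, 34.8, 51.2, 45.1 and 39.5 in FoEV. All FoEV libraries lay above all Co libraries, while FeEV overlapped with both. Its log2 fold change in FoEV vs Co was 0.56 ± 0.14 (SE, n = 5 per treatment), a 1.47-fold difference. NDUFB11 (gene ID 404161), an accessory subunit of the membrane arm encoded on the X chromosome in mammals, had 37.9, 35.4, 36.1, 29.7 and 37.3 CPM in Co, 37.2, 38.2, 48.2, 39.6 and 36.6 in FeEV, and 59.7, 45.7, 42.4, 51.4 and 43.6 in FoEV. Again no FoEV library overlapped with Co, and the lowest FoEV value, in replicate 3, was under the highest FeEV value. The log2 fold change was 0.46 ± 0.12, with an adjusted p of 0.118 in the edgeR quasi-likelihood test. These 2 were the members whose FoEV and Co libraries did not overlap, a pattern shown by 1.26% of all genes, while 1.35% had all FoEV libraries below Co.

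NDUFA13 (gene ID 338084), an accessory subunit at the foot of the membrane arm that is also known as GRIM-19, had 24.8, 22.6, 23.5, 20.1 and 27.5 CPM in Co, 26.2, 31.6, 29.1, 26.9 and 26.8 in FeEV, and 41.2, 22.7, 34.2, 32.7 and 36.3 in FoEV. FoEV replicate 2 lay within the Co range and the other FoEV libraries above it (log2 fold change 0.50 ± 0.15, adjusted p = 0.14 by edgeR). NDUFB7 (gene ID 338065), an accessory subunit facing the intermembrane space, had 29.9, 27.7, 33.2, 25.7 and 27.1 CPM in Co, 30.1, 31.2, 33.5, 41 and 33.8 in FeEV, and 47.2, 30.5, 43.3, 34.4 and 42.8 in FoEV. Here too FoEV replicate 2 was the only FoEV library inside the Co range, and the log2 fold change was 0.46 ± 0.13. NDUFS7 (gene ID 338079) carries the last iron-sulfur cluster before ubiquinone and was the core gene with the highest fold change. It had 24.8, 19.6, 20.3, 18.1 and 27.5 CPM in Co, 27.4, 28.6, 25, 28.2 and 30.2 in FeEV, and 34.5, 22.7, 37.5, 30.7 and 28.1 in FoEV. The log2 fold change was 0.48 ± 0.15 (adjusted p = 0.156 by edgeR), and FoEV replicate 2 was the only FoEV library inside the Co range.

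NDUFA3 (gene ID 338064), a small accessory subunit of the membrane arm, had the highest log2 fold change of all members, 0.64 ± 0.23. Its Co libraries were at 23.3, 21.2, 13.5, 12 and 17.2 CPM, its FeEV libraries at 16.4, 29.3, 25.6, 21.9 and 23.5, and its FoEV libraries at 21.5, 17.9, 30.3, 43.4 and 24.8. FoEV replicates 1 and 2 lay within the Co range, and the gene had 30 to 130 counts per library. NDUFS6, a zinc-binding accessory subunit, was at 15.0 ± 3.02 CPM (SD, n = 5) in Co, 15.6 ± 2.63 in FeEV and 20.2 ± 3.01 in FoEV, a log2 fold change of 0.44 between FoEV and Co. NDUFB9, a small accessory subunit of the LYR family, had means of 52.2 ± 4.26, 52.4 ± 7.23 and 63.2 ± 7.94 CPM in Co, FeEV and FoEV. NDUFA11, an accessory subunit of the membrane arm, had means of 29.9 ± 5.39, 30.3 ± 4.57 and 37.1 ± 5.15 CPM. In NDUFS6, NDUFB9 and NDUFA11 the FeEV mean was thus close to the Co mean and the FoEV mean was the higher. NDUFAB1, the mitochondrial acyl carrier protein that also serves fatty acid synthesis, had a log2 fold change of 0.24 ± 0.12 in FoEV vs Co and did not reach an unadjusted p of 0.05.

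NDUFS1 (gene ID 288380), a core subunit of the matrix arm that holds several iron-sulfur clusters, was the complex I gene with the lowest fold change. It had 118, 109, 86.4, 95.5 and 106 CPM in Co, 96.9, 121, 113, 117 and 118 in FeEV, and 80.1, 91.3, 100, 92.2 and 96.8 in FoEV. FoEV overlapped with Co, and 4 of the 5 FeEV libraries lay above all FoEV libraries. The log2 fold change was -0.16 ± 0.10 in FoEV vs Co and -0.30 ± 0.10 in FoEV vs FeEV, where the unadjusted p was 0.00639 and the adjusted p 0.486 by edgeR.

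**Figure D2:**
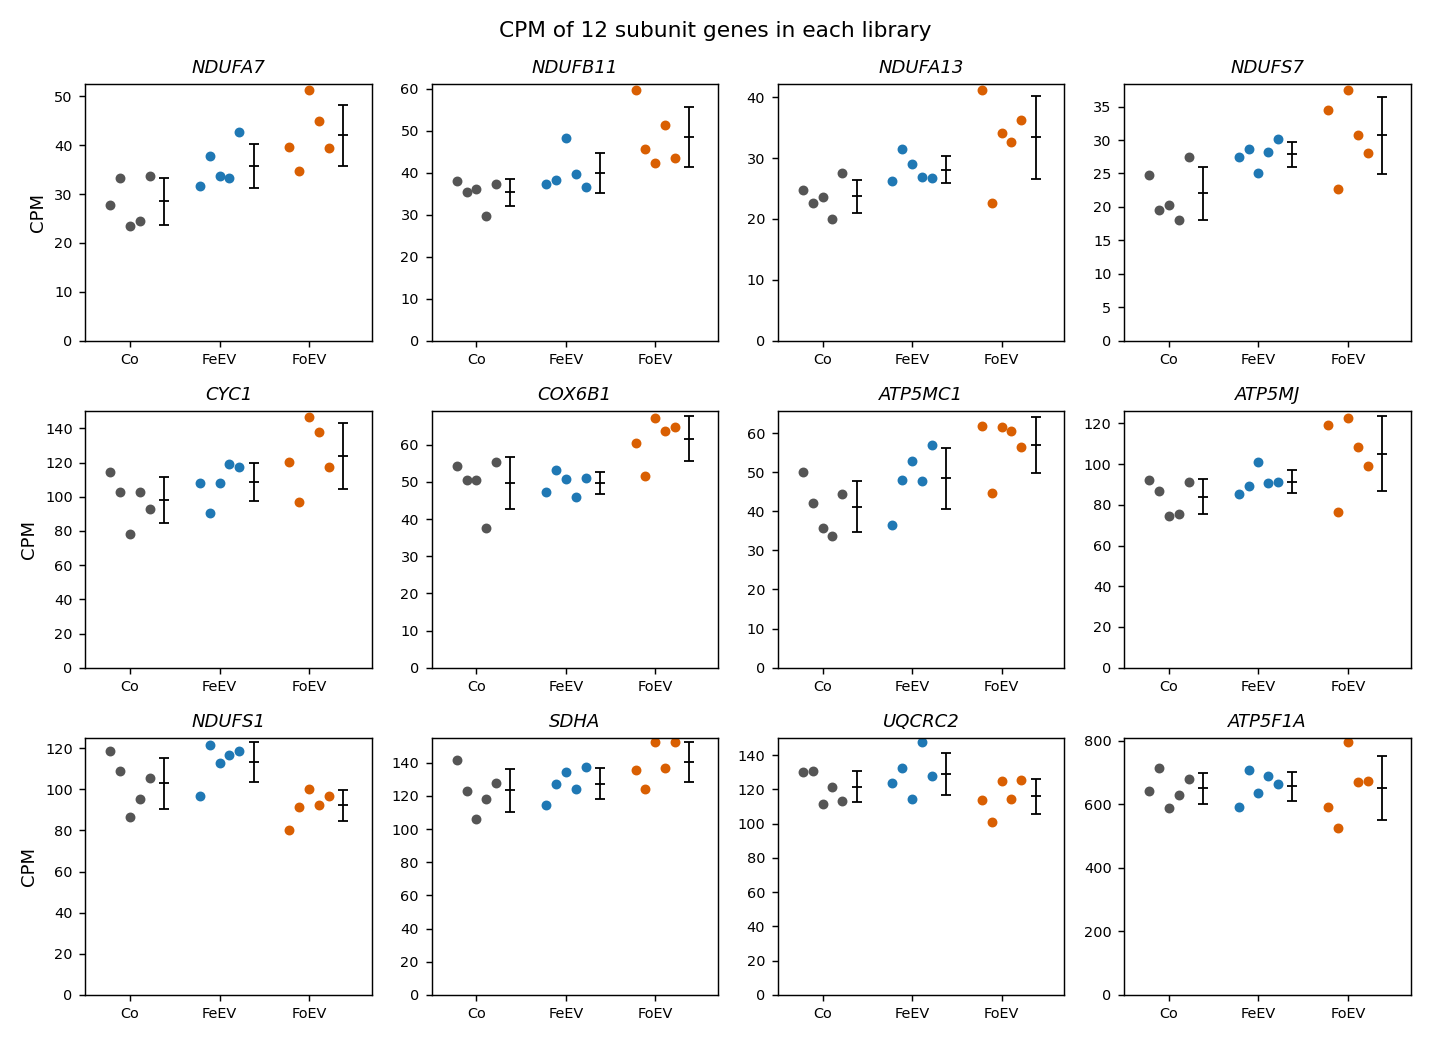
CPM of 12 subunit genes in each library of Co (grey), FeEV (blue) and FoEV (orange), with the mean and SD of the 5 libraries beside the points and the CPM axis from 0. In the upper 8 genes (NDUFA7 to ATP5MJ) the FoEV mean is the highest, and the FoEV libraries lie wholly above Co only in NDUFA7 and NDUFB11. In NDUFS1, UQCRC2 and ATP5F1A the FoEV means are 92.1, 116 and 651 CPM against 103, 121 and 650 in Co.

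Complex II is succinate dehydrogenase, shared by the respiratory chain and the citric acid cycle and encoded entirely in the nucleus. None of its 4 genes had an unadjusted p under 0.05 in any comparison. SDHA, the flavoprotein, had 142, 123, 106, 118 and 128 CPM in Co, 114, 127, 134, 124 and 138 in FeEV, and 136, 124, 153, 137 and 152 in FoEV. The treatments overlapped, with FoEV replicates 3 and 5 above all Co libraries, and the log2 fold change in FoEV vs Co was 0.19 ± 0.09. SDHB, the iron-sulfur subunit, had a log2 fold change of 0.12 ± 0.11, and the membrane anchors SDHC and SDHD had 0.20 ± 0.12 and -0.08 ± 0.11.

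Complex III, the cytochrome bc1 complex, had 8 of 9 genes higher in FoEV than in Co and 2 at an unadjusted p under 0.05. CYC1 (gene ID 512500), cytochrome c1, which hands electrons to cytochrome c, had 114, 103, 78.4, 103 and 92.8 CPM in Co, 108, 90.6, 108, 119 and 118 in FeEV, and 120, 97.1, 147, 138 and 118 in FoEV. Apart from FoEV replicate 2, the FoEV libraries lay above all Co libraries, and the log2 fold change was 0.33 ± 0.12 (adjusted p = 0.192 by edgeR). UQCRQ, a small subunit without a redox centre, had means of 35.1 ± 6.86 CPM in Co and 43.2 ± 7.05 in FoEV. UQCRFS1, the Rieske iron-sulfur protein, had a log2 fold change of 0.06 ± 0.11, and the core protein UQCRC2 had the lowest value of the complex, -0.07 ± 0.09. Cytochrome b, the remaining redox protein of the complex, is encoded in the mitochondrial genome.

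Complex IV, cytochrome c oxidase, had 13 of 14 genes higher in FoEV than in Co, at a median log2 fold change of 0.18, with 4 genes at an unadjusted p under 0.05. COX6B1 (gene ID 100270792), a subunit at the side where cytochrome c docks, had 54.3, 50.6, 50.6, 37.7 and 55.4 CPM in Co, 47.4, 53.1, 50.7, 46 and 51.1 in FeEV, and 60.4, 51.7, 67.2, 63.8 and 64.9 in FoEV. All but FoEV replicate 2 lay above every Co and every FeEV library, and Co replicate 4 lay below the rest of Co. The log2 fold change was 0.31 ± 0.11 against Co (adjusted p = 0.201 by edgeR) and 0.31 ± 0.11 against FeEV (adjusted p = 0.496). COX6C had means of 75.2 ± 9.42 CPM in Co, 79.8 ± 5.87 in FeEV and 90.9 ± 8.27 in FoEV.

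Isoform pairs of complex IV were read side by side for their differences between treatments. COX4I1, the ubiquitous form of the subunit that binds regulatory nucleotides, had a log2 fold change of 0.23 ± 0.10 in FoEV vs Co, with 138 ± 20.1 CPM in Co and 162 ± 17.1 in FoEV. COX7A2, the non-muscle form, had 85.7, 121, 103, 94.7 and 122 CPM in Co, 119, 104, 128, 97.9 and 107 in FeEV, and 168, 119, 175, 88.8 and 131 in FoEV. Its FoEV libraries ranged most widely, with replicates 1 and 3 the highest and replicates 2 and 4 inside the Co range (log2 fold change 0.38 ± 0.15). COX7A2L, a related protein known for joining complexes III and IV, had a log2 fold change of -0.08 ± 0.12. COX6A1 had 0.18 ± 0.10, COX8A had 0.15 ± 0.09 and COX8C, at 11 to 45 counts per library, had 0.53 ± 0.26. NDUFA4, once assigned to complex I and now placed in complex IV, had 157 ± 17.5 CPM in Co, 152 ± 8.91 in FeEV and 177 ± 17.8 in FoEV.

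Complex V, the ATP synthase, had a median log2 fold change of 0.10 in FoEV vs Co, with 17 of its 18 genes above 0. This was the lowest of the 5 complexes with all libraries, but complex III was lower without Co replicate 2, 3 or 5 and among genes of at least 50 CPM, where complex III was at 0.10 and complex V at 0.14. ATP5F1A (gene ID 282578) and ATP5F1B (gene ID 327675) encode the alpha and beta subunits of the head, of which beta carries the catalytic sites. These genes, whose counts per library were the highest among the members, had log2 fold changes of 0.00 ± 0.10 and 0.04 ± 0.10. ATP5F1A was at 641, 713, 587, 629 and 679 CPM in Co, 590, 707, 635, 687 and 663 in FeEV, and 590, 526, 795, 671 and 674 in FoEV. FoEV held both the lowest and the highest library, replicates 2 and 3. The median was 0.10 for the 5 genes of the F1 head and central stalk, 0.07 for the 4 of the peripheral stalk, 0.18 for the 3 of the c ring and 0.22 for the other 5 membrane genes.

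The 3 c ring genes encode the same mature subunit c behind different import sequences. ATP5MC1 (gene ID 338053) had 50, 42.2, 35.8, 33.7 and 44.3 CPM in Co, 36.4, 47.9, 52.9, 47.8 and 57 in FeEV, and 61.8, 44.6, 61.4, 60.4 and 56.4 in FoEV. All but FoEV replicate 2 lay above Co, while FeEV spanned the range from Co to FoEV (log2 fold change in FoEV vs Co 0.47 ± 0.13, adjusted p = 0.138 by edgeR). ATP5MC2 and ATP5MC3 had log2 fold changes of 0.18 ± 0.15 and 0.09 ± 0.11, neither with an unadjusted p under 0.05. Whether the 3 genes differed from each other in their response was not tested.

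ATP5MJ (gene ID 767909), a small membrane subunit, had 92.2, 86.7, 74.5, 75.5 and 91.1 CPM in Co, 85.2, 89.5, 101, 90.6 and 91.1 in FeEV, and 119, 76.7, 123, 108 and 99 in FoEV. FoEV replicate 2 was within Co and the others above it (log2 fold change 0.33 ± 0.11, adjusted p = 0.191 by edgeR). ATP5ME, subunit e, which takes part in the pairing of ATP synthases, had means of 32.6 ± 5.65 CPM in Co, 36.1 ± 3.97 in FeEV and 39.9 ± 4.95 in FoEV. ATP5IF1, the inhibitor that blocks ATP hydrolysis when the proton gradient is lost, had a log2 fold change of 0.23 ± 0.12, and ATP5PB of the peripheral stalk had -0.02 ± 0.09.

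The size of the difference was also set out by the mean CPM of the genes. The 32 members with a mean under 50 CPM were all higher in FoEV than in Co, at a median log2 fold change of 0.25, with 11 at an unadjusted p under 0.05. Of the 50 members at or above 50 CPM, 44 were higher, with a median of 0.15 and 7 at such a p. When only genes of at least 50 CPM were fitted, 46 of the same 50 members were higher, with a median of 0.19 and 15 at such a p. That fit gave 16 of all its genes at an adjusted p under 0.05, against 1 in the main fit. The share of all genes at an unadjusted p is not given for these groups or for that fit. The values of these 50 members depended on the filter, and that fit held no members under 50 CPM. Whether members under and above 50 CPM differed was not tested.

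The libraries of a treatment did not move as a block. The mean log2 CPM over the 82 members was 5.97, 6.01, 5.79, 5.77 and 6.02 in Co, 5.90, 5.99, 5.99, 6.02 and 6.05 in FeEV, and 6.13, 5.88, 6.31, 6.03 and 6.11 in FoEV. FoEV replicate 3 was the highest of all 15 libraries and had 81 of 82 members above the Co mean. FoEV replicate 2 lay among the lower libraries, with 35 members above the Co mean. In Co, replicates 3 and 4 had 14 and 18 members above the mean of their own treatment, against 49, 64 and 67 in the other Co libraries. Group means were 5.91 ± 0.12 (SD, n = 5) in Co, 5.99 ± 0.06 in FeEV and 6.09 ± 0.16 in FoEV, so the ranges of the treatments overlapped and FeEV varied least.

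**Figure D3:**
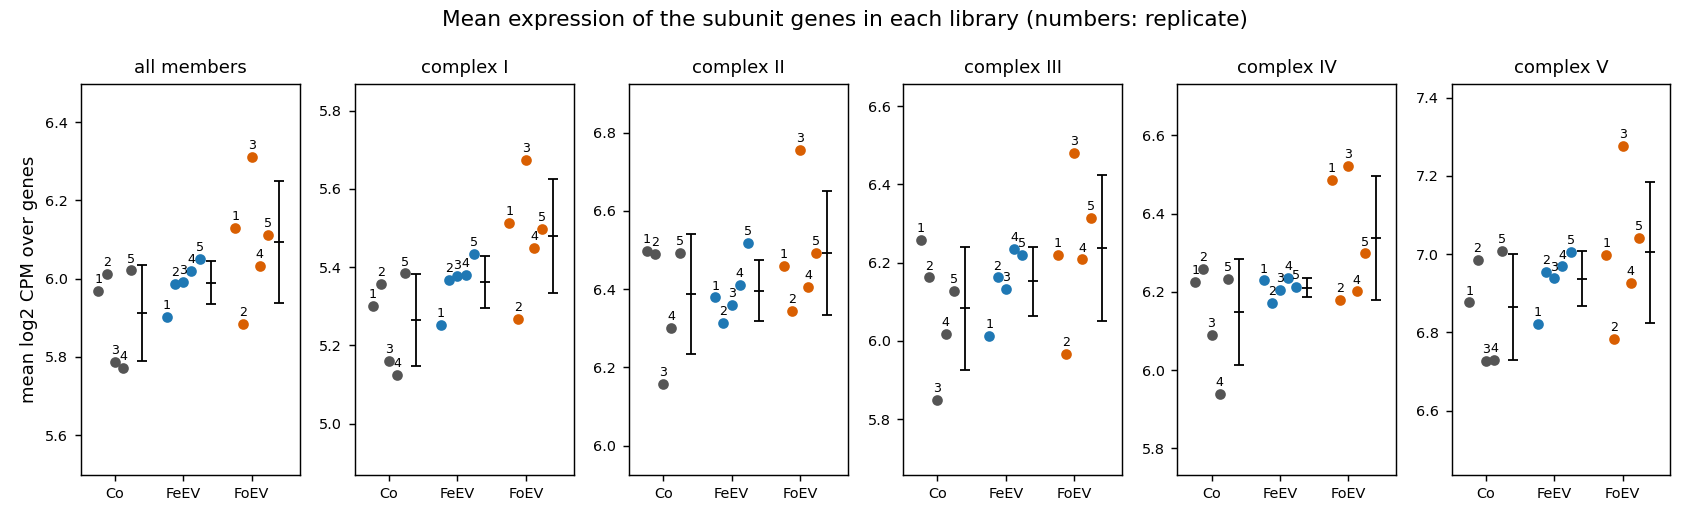
Mean log2 CPM over all subunit genes and over the genes of each complex, per library (points, numbered by replicate), with the mean and SD of each treatment; each panel has its own axis. FoEV replicate 3 is the highest library in every panel and FoEV replicate 2 lies inside the Co range, and the mean over all members is 5.91 in Co and 6.09 in FoEV.

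The same libraries stood out in each complex. In complex I the treatment means were 5.26 ± 0.12, 5.36 ± 0.07 and 5.48 ± 0.15 log2 CPM in Co, FeEV and FoEV. In complex V they were 6.86 ± 0.14, 6.94 ± 0.07 and 7.00 ± 0.18. In complexes I to V alike, FoEV replicate 3 had the highest mean of all libraries.

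**Figure D4:**
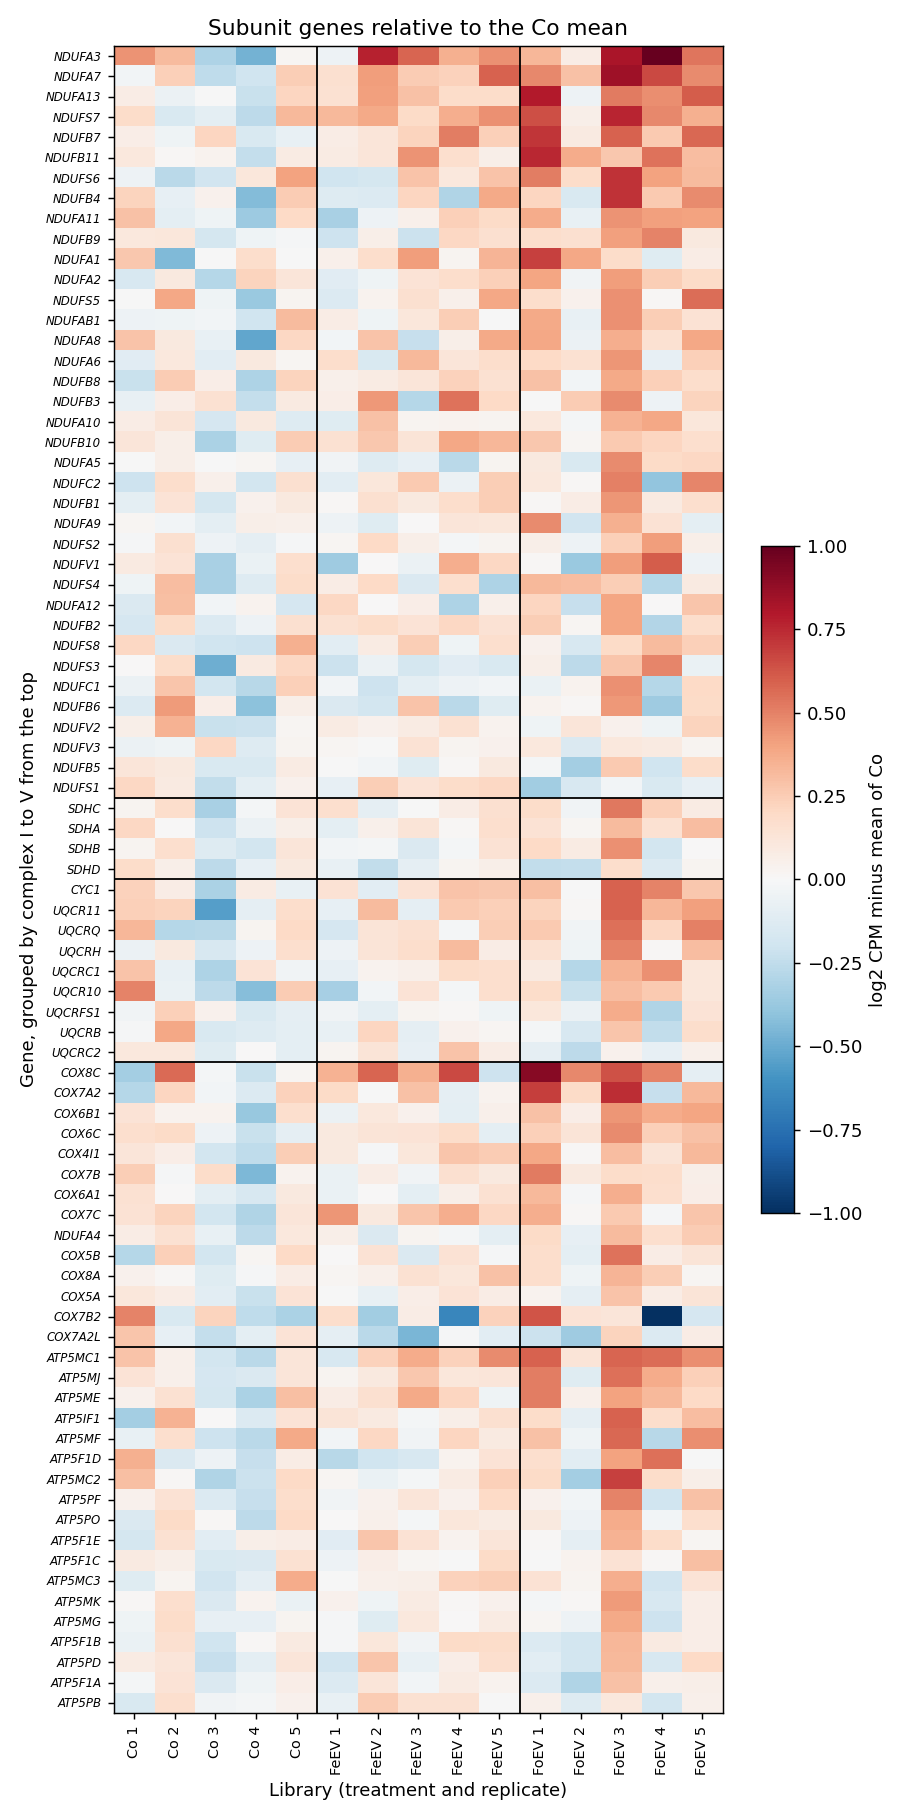
Log2 CPM of each of the 82 subunit genes (rows, grouped by complex and ordered within it by the log2 fold change in FoEV vs Co) in each of the 15 libraries (columns), relative to the gene's mean in Co. Columns FoEV 3, 1 and 5 are red over most genes, with 81, 68 and 75 members above the Co mean, while FoEV 2 and Co 3 and 4 are pale or blue, with 35, 14 and 18.

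In FeEV vs Co, subunit genes differed little. Of the 82 members, 67 were above 0, against 51% of all genes, with a median log2 fold change of 0.06 against 0.00 over all genes. An unadjusted p under 0.05 was found for 4 members, all higher in FeEV, which is 4.88% of the members against 4.15% of all genes (1.83% higher and 2.32% lower). With Benjamini-Hochberg adjustment 0 members passed in edgeR, and the likelihood ratio test and DESeq2 also gave 0 members. No member had FeEV libraries all above or all below Co, as 0.535% and 0.415% of all genes had.

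The 4 members were NDUFA7, NDUFS7 and NDUFB10 of complex I and COX7C of complex IV. NDUFA7 and NDUFS7, whose libraries are given above, had log2 fold changes of 0.33 ± 0.14 and 0.34 ± 0.15 in FeEV vs Co. NDUFB10, an accessory subunit of the membrane arm, had 49.6, 47.6, 36.4, 41.7 and 54.6 CPM in Co, 50.7, 55, 49.7, 59.7 and 57.5 in FeEV, and 55.1, 46.2, 54.8, 53.1 and 51.2 in FoEV. COX7C, a small complex IV subunit, had 101, 107, 80.6, 74.2 and 99.7 CPM in Co, 125, 98, 111, 118 and 106 in FeEV, and 118, 92.3, 110, 91.1 and 112 in FoEV. In both genes 3 FeEV libraries lay above all of Co, and Co replicates 3 and 4 were the lowest. The log2 fold changes were 0.25 ± 0.11 for NDUFB10 and 0.27 ± 0.11 for COX7C, each with an adjusted p of 1 in edgeR. The count of 4 rested on single libraries, with 0 members left without Co replicate 3 or Co replicate 4 and 1 member left without FeEV replicate 2, 4 or 5. The median was 0.02 without Co replicate 3 and 0.03 without Co replicate 4.

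In FoEV vs FeEV, which asked whether freezing the oEVs mattered, 66 members were above 0 and 16 below, against 51.8% of all genes above 0. The median log2 fold change was 0.14, against 0.01 over all genes. By edgeR, 8 members had an unadjusted p under 0.05, or 9.76% of the members against 8.52% of all genes (4.83% higher and 3.69% lower). Of the 8, 7 were higher in FoEV and 1, NDUFS1, was lower. With adjustment 0 members passed in edgeR, in its likelihood ratio test and in DESeq2, and no member had FoEV libraries all above or all below FeEV (0.757% and 0.748% of all genes).

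The 7 higher members were NDUFB11, NDUFS6, NDUFB9, NDUFA5, COX6B1, NDUFA4 and ATP5F1D. NDUFA5, an accessory subunit of the matrix arm, had 39, 40.8, 39, 39.7 and 36.9 CPM in Co, 38.1, 35.6, 36.9, 32.3 and 40 in FeEV, and 41.9, 35.1, 54.5, 44.7 and 45.2 in FoEV. All but FoEV replicate 2 lay above every library of the other treatments, and the log2 fold change in FoEV vs FeEV was 0.27 ± 0.12. ATP5F1D, the delta subunit of the central stalk, had 67.8, 47.9, 51, 45 and 55.8 CPM in Co, 43.5, 46, 47.2, 54.2 and 58.1 in FeEV, and 59.5, 49.2, 70.3, 77.8 and 52.9 in FoEV. FoEV replicates 1, 3 and 4 lay above all FeEV libraries (log2 fold change 0.31 ± 0.14), and Co replicate 1 was within the upper FoEV values. The count of 8 was 3 without FoEV replicate 3 or FeEV replicate 2, 4 without FeEV replicate 1, 5 without FoEV replicate 1 and 22 without FoEV replicate 2. The median was 0.05 without FoEV replicate 3. FoEV and FeEV were each compared with the same Co libraries, so the 3 comparisons share samples.

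Genes that build or serve the complexes were taken as further lists. In the edgeR quasi-likelihood test none of their genes passed the adjusted threshold, and results of the other tests are not given for them. Of 56 assembly factors, 52 were measured in the filtered table, and 35 were higher and 17 lower in FoEV than in Co, with a median log2 fold change of 0.13. There, 7 assembly factors had an unadjusted p under 0.05 and were higher (NDUFAF8, ACAD9, COX14, COX17, COA4, SURF1 and PET100), and COA7 was lower. These 8 of 52 genes are a share close to the 15.1% of all genes at such a p. By direction, 7 of the 52 were higher, against 8.18% of all genes, and 1 was lower, against 6.88%. COX17, the copper chaperone for complex IV, had 29.2, 45.2, 38.4, 28.1 and 33.2 CPM in Co, 37.6, 40.5, 42.2, 35.5 and 37.4 in FeEV, and 63.7, 42.9, 50.7, 40.4 and 54.5 in FoEV. FoEV replicates 1, 3 and 5 lay above all Co and FeEV libraries, and the log2 fold change in FoEV vs Co was 0.53 ± 0.14 (adjusted p = 0.118 by edgeR). Among genes upregulated with frozen oEVs, the study also lists COX17 under oxidative phosphorylation.

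Electron carriers and other entry points of electrons had a median log2 fold change of 0.06 in FoEV vs Co, with 10 of 14 measured genes higher. While 15.1% of all genes had an unadjusted p under 0.05 by edgeR, 1 of the 14 did. That gene was ETFB, a subunit of the electron transfer flavoprotein of fatty acid oxidation, with 26.25, 25.98, 21.0, 21.7 and 23.8 CPM in Co, 25.3, 29.0, 33.5, 31.0 and 29.6 in FeEV, and 34.5, 28.0, 38.02, 31.7 and 30.3 in FoEV. Its FoEV libraries all lay above Co, with a log2 fold change of 0.45 ± 0.13 (adjusted p = 0.131 by edgeR). ETFB is among the genes that the study lists as upregulated with frozen oEVs, under cellular respiration. CYCS, cytochrome c, read here from gene ID 510767, had a log2 fold change of 0.13 ± 0.11 (unadjusted p = 0.274 by edgeR). The study lists CYCS among its genes upregulated with frozen oEVs. It may use this symbol for another locus, which was not checked.

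Genes for upkeep and transcription of the mitochondrial genome had a median of -0.03, with 8 of 21 measured genes higher and 13 lower. POLRMT, the mitochondrial RNA polymerase, and HSD17B10, a subunit of mitochondrial RNase P, had log2 fold changes of 0.41 ± 0.13 and 0.28 ± 0.10. They were the 2 of 21 genes at an unadjusted p under 0.05 by edgeR, while 15.1% of all genes had such a p. TFAM, which packages mitochondrial DNA, had -0.12 ± 0.09. Regulators of the nuclear subunit genes had a median of -0.08, with 3 of 10 higher. ESRRA, a nuclear receptor active on such genes, was the 1 of 10 at an unadjusted p under 0.05 by edgeR, against 15.1% of all genes. It was at 13.1 ± 3.15 CPM in Co, 13.2 ± 1.07 in FeEV and 19.5 ± 4.56 in FoEV. NRF1 and GABPA, which bind many subunit promoters, had log2 fold changes of -0.08 ± 0.15 and -0.09 ± 0.11.

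Markers of embryonic lineages and of other cells were also read. Trophectoderm markers were higher in FoEV than in Co in 7 of 8 genes, against 52.3% of all genes above 0. Of these, 4 had an unadjusted p under 0.05 by edgeR, where 8.18% of all genes were higher at such a p. In FeEV vs Co 6 of the 8 were higher, against 51% of all genes, and 0 had such a p. The summed level of these markers was 6396 to 8662 CPM in Co, 6959 to 10460 in FeEV and 8314 to 11240 in FoEV. This sum was carried by the keratins KRT8 and KRT18, with means of 4266 and 2684 CPM in Co. KRT18 had a log2 fold change of 0.55 ± 0.13 (adjusted p = 0.0818 by edgeR), and the study lists it among genes upregulated with frozen oEVs. Of the transcription factors, GATA3 and GATA2 were at 0.19 ± 0.08 and 0.34 ± 0.15 and had an unadjusted p under 0.05, while CDX2 at 0.21 ± 0.20 and TFAP2A at -0.49 ± 0.30 did not. The summed inner cell mass markers were at 259 to 329.2 CPM in Co, 243.8 to 306.1 in FeEV and 226.8 to 363.6 in FoEV. POU5F1 made up the largest part of this sum, with a mean of 168 CPM in Co. The summed hypoblast markers were at 6315 to 8777, 5506 to 7823 and 4614 to 7261 CPM. That sum was carried by FN1, with a mean of 6803 CPM in Co. NANOG, a factor of the inner cell mass, had a lower mean in FoEV than in Co (log2 fold change -0.84 ± 0.26, unadjusted p = 0.00641 and adjusted p = 0.178 by edgeR). Its log2 fold change was -0.62 in FeEV vs Co. The study reports NANOG as downregulated with frozen oEVs. FN1, a hypoblast marker, was at -0.29 ± 0.14 in FoEV vs Co, with an unadjusted p of 0.0496 by edgeR, and none of the other inner cell mass or hypoblast markers measured had such a p under 0.05. FGF4 and SOX17 were at most 0.559 and 3.87 CPM in any library. Oviduct epithelium markers summed to 13.7 to 35.4 CPM over the libraries, with OVGP1, the oviductal glycoprotein, at most 1.51 CPM, PAX8 at 4.46 to 12.4 and MUC16 at 5.63 to 22.2. Cumulus and granulosa cell markers summed to 27.8 to 49.0 CPM, with CYP19A1 at 13.8 to 38.6, FSHR at 5.20 to 14.4 and PTX3 at most 0.313. None of these markers tested in the filtered table had an unadjusted p under 0.05 in FoEV vs Co, where CYP19A1 was at 0.48 ± 0.26, while MUC16 and FSHR were lower in FeEV than in Co with an unadjusted p of 0.0254 each by edgeR. Inner cell mass markers were mixed, with 2 of 4 tested higher in FoEV than in Co and a median log2 fold change of -0.01. POU5F1, SOX2 and KLF17 were at 0.21 ± 0.11, -0.03 ± 0.25 and 0.00 ± 0.33, so the lower value of NANOG was not shared across the list. Library depth and most trophectoderm markers were thus higher in FoEV, beside the higher values of the subunit genes. The part of the markers in the result was not tested.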

How the data were processed

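The authors trimmed reads, aligned them to the bovine assembly ARS-UCD1.2 (bosTau9) and deposited raw counts per gene for 34773 genes and a table of 10832 genes filtered on low counts. The submitters' processing notes list Trim Galore 0.4.3.1, HISAT2 2.1.0 and featureCounts 1.6.3, while the methods name QuasR for counting. The notes and methods do not say whether strand was used in counting. Library preparation with 1 ng RNA included amplification without stated molecular identifiers. Groups and replicate numbers came from the labels, which give culture to day 7 where the methods give a later day.

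Filtered counts of all 15 libraries were fitted with edgeR 4.0.16 (TMM, robust quasi-likelihood, treatment as the only factor) in R 4.3.3, and p-values were adjusted over 10832 genes. CPM used TMM-scaled totals, log2 CPM a prior count of 2. DESeq2 1.42.0 and the other alternatives are given in the closing section. Scripts were tested on simulated data. The members, gene lists and tests were chosen with earlier results of these data known. Genes named were members at an unadjusted p under 0.05 (up to 25 in FoEV vs Co and 10 elsewhere), the highest and lowest of each complex, and members with a set role (complex II, redox subunits, isoforms, c ring, inhibitor, and alpha and beta subunits of ATP synthase), 41 in all. Means of complexes, core or accessory groups and lists were described without a test. Sequences were not printed, and genome coordinates were not used.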

Additional observations from a re-analysis of the deposited data

Results flagged for a closer look

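In 3 of the 123 groups of 5 libraries examined for the 41 named genes, a library lay far from the other libraries of its treatment, measured as its gap over the whole range. Chance gives this in about 1 in 20 groups. COX6B1 in Co was lowest at replicate 4, with 37.7 CPM against 50.6 to 55.4 in the others. NDUFA11 in FoEV was lowest at replicate 2, with 28.0 CPM against 38.4 to 40.5. NDUFB11 in FeEV was highest at replicate 3, with 48.2 CPM against 36.6 to 39.6. Over all 82 members, 6 of 246 groups showed such a library.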

How the results depend on the processing

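The number of genes at an adjusted p under 0.05 in FoEV vs Co was 1 in the edgeR quasi-likelihood test. It was 311 with the likelihood ratio test, 144 with DESeq2, 173 with no filter, 16 among genes of at least 50 CPM, 5 when only the 2 treatments were fitted, 15 with thinned counts, 57 with the replicate block and 12 with a block by library number. In FeEV vs Co it was 0, and 6, 1 and 13 with the likelihood ratio test, DESeq2 and no filter. In FoEV vs FeEV it was 0, and 31, 3 and 22 with the same settings and 1 with the library number block. Members at an adjusted p under 0.05 in FoEV vs Co were 0, then 7 with the likelihood ratio test (ATP5MC1, ATP5MJ, NDUFA13, NDUFA7, NDUFB11, NDUFB7 and NDUFS7), 2 with DESeq2 (NDUFA7 and NDUFB11) and 2 with no filter (NDUFA3 and NDUFA7). Among genes of at least 50 CPM, 50 of the 82 members were tested. Of these, 46 were higher in FoEV vs Co, against 44 of the same 50 in the fit to all genes, with 15 against 7 at an unadjusted p under 0.05, and 41 were higher in FeEV vs Co, where 2 members had such a p. The library number block gave 4 such members in FoEV vs FeEV. The cause of the changes was not tested.

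Leaving out each library in turn gave 0 to 58 genes at an adjusted p under 0.05 in FoEV vs Co, 0 in FeEV vs Co and 0 to 1 in FoEV vs FeEV. Members at that threshold were 0 to 2 in FoEV vs Co and 0 in the other comparisons. Members at an unadjusted p under 0.05 were 10 to 35, 0 to 6 and 3 to 22 in FoEV vs Co, FeEV vs Co and FoEV vs FeEV, members higher were 66 to 77, 50 to 70 and 55 to 74, and the median log2 fold change was 0.10 to 0.23, 0.02 to 0.10 and 0.05 to 0.18.

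Log2 fold changes near 0 changed sign in FoEV vs Co. ATP5F1A was at -0.010 with the likelihood ratio test, -0.00412 with DESeq2, -0.00402 with the size factors of DESeq2, -0.000988 with no filter, -0.000996 with thinned counts, -0.00197 with the replicate block, -0.019 with the library number block and -0.085 to 0.071 with a library left out. ATP5PB was at 0.019 among genes of at least 50 CPM and SDHD at 0.0076 with thinned counts. With a library left out, ATP5F1B was at -0.050 to 0.091, ATP5PB at -0.060 to 0.024 and UQCRFS1 at -0.031 to 0.143. The median over the members stayed above 0 in all 3 comparisons in every setting run.

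Replicate numbers were shared by the labels only. Residuals of same-numbered libraries correlated at -0.29 to 0.35 in FoEV vs Co, -0.21 to 0.42 in FeEV vs Co and 0.01 to 0.44 in FoEV vs FeEV. Their means were 0.034, 0.138 and 0.186, against -0.0084, -0.034 and -0.046 for other pairs. In these comparisons 1, 2 and 2 of 5 libraries correlated best with their own number. The main fit left the block out, and the labels do not say whether pools were paired. With the replicate block, 19, 4 and 10 members had an unadjusted p under 0.05, 0 at an adjusted p, and the medians were 0.17, 0.07 and 0.13. The planned share of counts on mitochondrially encoded subunits was not run, as these genes were not analysed here. At a median of 194.5 counts per member, the standard errors of the log2 fold change in FoEV vs Co were 0.09 to 0.29.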
